A study of Mus musculus with 2 samples.

Results

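The 42 genes described here encode the enzymes and transporters that carry glucose carbon through glycolysis, between pyruvate and lactate, and around the tricarboxylic acid (TCA) cycle. They were chosen by gene symbol: 18 act in glycolysis, 11 handle pyruvate and lactate, and 13 belong to the TCA cycle. They are 42 of the 55536 annotated genes in the deposited gene tables, and 322 of the 141864 annotated transcripts belong to them. All values come from hippocampus of male B6CASTF1/J mice, an F1 cross of C57BL/6J and CAST/EiJ, at 25 days of age, with no treatment named and no other group in the series. The labels give the tissue as layer of hippocampus and describe 2 biological replicates of total RNA-seq, each from 300 ng of RNA with synthetic spike-in RNAs added. Both carry the same donor identifier but separate tissue identifiers, so the spread between them may be technical and n = 2 throughout. The tables do not separate the alleles of the parental strains.

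Glycolysis splits glucose into pyruvate in the cytosol, and many of its steps have several isozymes that differ between tissues in regulation and in affinity for substrate. Pyruvate is either reduced to lactate by lactate dehydrogenase or carried into the mitochondrion, where the pyruvate dehydrogenase complex passes it to the TCA cycle. In brain, astrocytes are known for glycolysis and lactate export, and neurons for lactate uptake and oxidative metabolism, but bulk tissue RNA mixes both. In these libraries, fewer cells of a type and less RNA per cell cannot be told apart.

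The 2 libraries held 30635891 and 35713471 counts on annotated genes, of which 240582 and 305639 fell on the 42 enzymes, from 72 counts (Eno3, replicate 2) to 38479 (Aldoa, replicate 2). Levels are given in TPM, a read count divided by transcript length and scaled so that every library has the same total, from the gene table with RSEM columns unless the table with kallisto columns is named. All 6 marker genes checked for each of neurons, hippocampal fields, astrocytes, oligodendrocytes, microglia and endothelium were at or above 1 TPM, as were all 5 red blood cell genes. Of 6 skeletal muscle genes, 1 had a mean of at least 1 TPM (Acta1, 3.85 and 3.76 TPM), Mylpf stood at 1.23 and 0.44 TPM, and Ckm had no count in either library.

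Every one of the 42 enzyme genes was detected at a mean of at least 1 TPM, against 58.9% of 22015 nuclear protein-coding genes. At 100 TPM or more there were 20 of the 42, against 3.92% of those protein-coding genes. The median was 191 ± 14.3 TPM (SD, n = 2) over the 18 glycolysis genes, 59.3 ± 1.05 TPM over the 11 pyruvate and lactate genes and 79.2 ± 6.06 TPM over the 13 TCA cycle genes. Over the 12964 detected protein-coding genes it was 15.1 ± 0.325 TPM. Together the 42 genes held 1.58% of all nuclear protein-coding TPM in replicate 1 and 1.69% in replicate 2, and the glycolysis genes alone 1.13% and 1.21%. The levels ran from Eno3, at 3.50 and 2.83 TPM, to Aldoa, at 1031 and 1132 TPM. In the kallisto table the highest was Gapdh, at 3435 and 3804 TPM against 1641 and 1820 TPM for Aldoa. TPM of the 2 tables are not on a common scale: after both were rescaled to nuclear protein-coding genes, Aldoa was 0.965 times as high in the kallisto table. In the RSEM table Aldoa and Gapdh ranked 9 and 10 among all nuclear protein-coding genes by mean TPM.

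**Figure D1:**
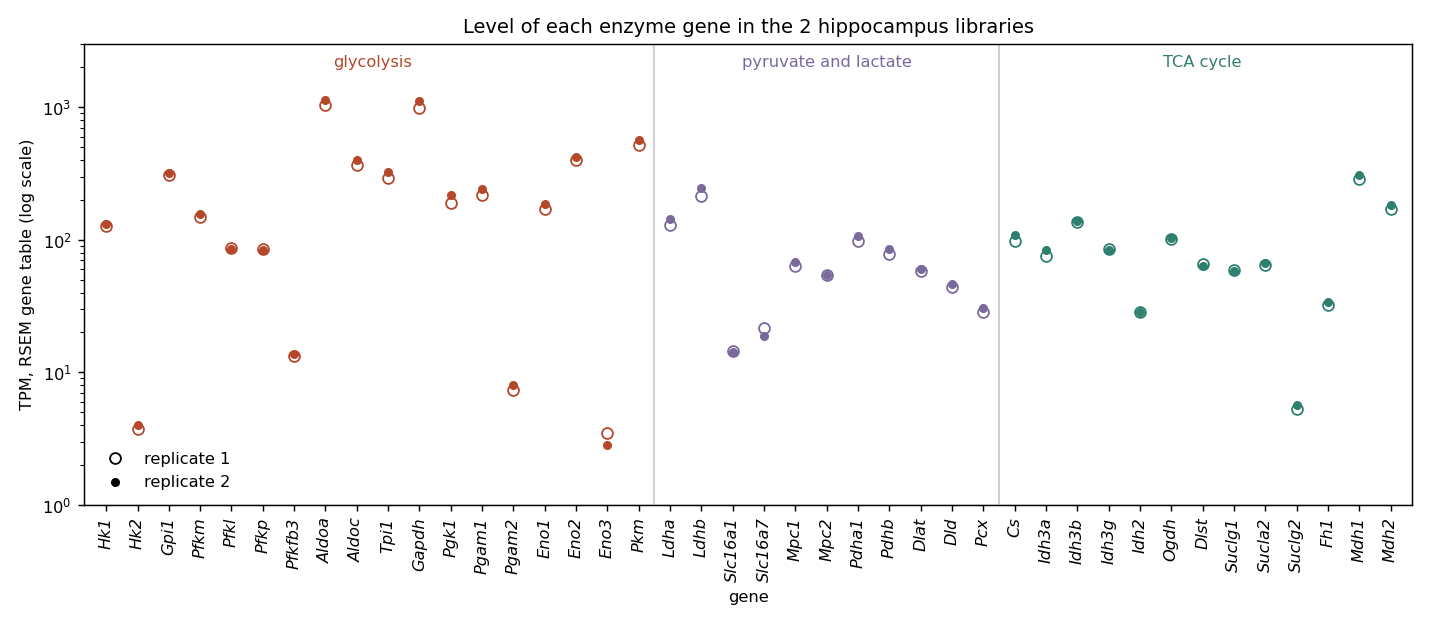
TPM of each of the 42 genes on a log scale, with an open circle for replicate 1 and a filled circle for replicate 2, in the order of the pathway. Aldoa and Gapdh lie highest, between 990 and 1132 TPM, and the 4 genes below 10 TPM are Hk2, Pgam2, Eno3 and Suclg2, each a minor member of its enzyme family.

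Hexokinase, which phosphorylates glucose on entry, came almost wholly from Hk1. Hk1 stood at 126 and 131 TPM and Hk2, the insulin-responsive isozyme known from muscle and fat, at 3.73 and 4 TPM. Hk1 thus held 97.1% ± 0.0618 of the summed hexokinase TPM, and 97.4% ± 0.571 in the kallisto table. The coding sequences of the pair are 71.3% identical, and neither has a near copy elsewhere in the annotation by the measure used below.

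Hk1 lies at chr10:62268855-62379908 (mm10, minus strand), and its 3 leading transcripts differ at the 5′ end of the coding sequence. Hk1-202 opens in an exon of its own with the stretch known to bind hexokinase I to the mitochondrial outer membrane. Hk1-201 and Hk1-205 replace that stretch. The coding bases before the first exon that all 3 share are shown because reads over these bases tell the transcripts apart, with the start codon in capitals. Those of Hk1-202 lie at chr10:62340013-62340075, those of Hk1-205 at chr10:62342501-62342560, and those of Hk1-201 in 2 exons within chr10:62353058-62358362. All are read from the GENCODE M21 transcripts, 5′ to 3′.
Hk1-202: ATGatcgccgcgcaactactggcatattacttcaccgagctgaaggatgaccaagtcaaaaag
Hk1-201: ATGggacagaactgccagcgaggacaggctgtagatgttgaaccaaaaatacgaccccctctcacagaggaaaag
Hk1-205: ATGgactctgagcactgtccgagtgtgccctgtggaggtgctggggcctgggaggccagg

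In the RSEM table Hk1-202 took 59.6% and 65.2% of the gene's TPM, Hk1-201 25.3% and 21.7%, and Hk1-205 13.4% and 12.3%. The kallisto table ranked them the other way, with Hk1-205 at 36.2% and 35.7%, Hk1-201 at 33.4% and 34.8%, and Hk1-202 at 28.7% in both replicates. For all 3 the replicates lay closer to each other than the tables did, so the order of these starts depended on the table and not on the replicate.

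Gpi1, which turns glucose-6-phosphate into fructose-6-phosphate, stood at 309 and 318 TPM. The next step, phosphofructokinase, is the main point of control of the pathway, and its subunits combine into mixed tetramers. Pfkm, the muscle-type subunit, was highest at 148 and 158 TPM. Pfkl, the liver type, stood at 87.3 and 85.7 TPM, and Pfkp, the platelet type, at 85.7 and 84.1 TPM. Pfkm therefore held 47.2% ± 1.43 of the family, Pfkl 26.7% ± 0.723 and Pfkp 26.2% ± 0.705. The order of Pfkl and Pfkp depended on the measure and is not settled. By TPM Pfkl was ahead in both libraries of both tables, narrowly in the RSEM table (27.2% against 26.7%, and 26.2% against 25.7%). In counts not divided by length Pfkp was ahead by mean share (29.4% against 29.0%). There Pfkp led in replicate 1 (30.4% against 28.6%) and Pfkl in replicate 2 (29.3% against 28.4%). Pfkfb3, whose product makes and breaks fructose-2,6-bisphosphate, an activator of phosphofructokinase, was at 13.3 and 13.7 TPM.

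Aldolase, which cleaves fructose-1,6-bisphosphate, had the highest summed level of the 10 glycolytic steps in the RSEM table, 1398 and 1530.3 TPM. In the kallisto table the Gapdh step was above it, at 4921 against 3288 TPM after rescaling to nuclear protein-coding genes. Hexokinase had the lowest in both tables, 130.1 and 135 TPM, and aldolase over hexokinase was 11.02 ± 0.395 (10.8 ± 0.332 in the kallisto table). Aldoa (chr7:126795234-126800751, minus strand), found in most tissues, held 73.9% ± 0.160 of the aldolase TPM. Aldoc (chr11:78322968-78327781, plus strand), the brain form known from astrocytes, held the rest at 367 and 398 TPM. The kallisto table gave Aldoa 71.5% ± 1.02. A second gene row with the symbol Aldoa lies just upstream at chr7:126800790-126809108, held 22 and 26 counts, and is not included in these sums.

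The coding sequences of Aldoa and Aldoc are 75.6% identical over their length. Their first 90 bases are shown because such differences are what separates reads of the pair: 19 of the 90 bases differ, printed in capitals.
Aldoa coding start: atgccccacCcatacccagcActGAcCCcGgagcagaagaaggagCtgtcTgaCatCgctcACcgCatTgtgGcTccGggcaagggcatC
Aldoc coding start: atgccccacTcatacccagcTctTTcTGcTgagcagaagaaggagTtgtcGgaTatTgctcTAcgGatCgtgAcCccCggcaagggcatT

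Of the middle steps, Tpi1, which interconverts the triose phosphates, stood at 292 and 326 TPM. Gapdh (chr6:125161715-125166467, minus strand), which makes the first NADH of the pathway, was at 990 and 1115 TPM. Pgk1, the ATP-yielding phosphoglycerate kinase encoded on the X chromosome, was at 191 and 217 TPM. Phosphoglycerate mutase came from Pgam1, at 217 and 243 TPM, while the muscle gene Pgam2 stood at 7.32 and 8.00 TPM. Pgam1 thus held 96.8% ± 0.0496 of the family TPM and 97.0% ± 0.0367 in the kallisto table.

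Enolase, which forms phosphoenolpyruvate, has 3 classical isozymes. Eno2, the neuron-specific gamma enolase (chr6:124760053-124769673, minus strand), stood at 403 and 423 TPM. Eno1, the alpha form of most tissues including glia (chr4:150236721-150248879, plus strand), stood at 171 and 185 TPM, and the muscle gene Eno3 at 3.50 and 2.83 TPM. Eno2 held 69.6% ± 0.412 of the family, Eno1 29.9% ± 0.512 and Eno3 0.535% ± 0.101, and the kallisto table gave Eno2 69.5% ± 0.910. The muscle isozymes Eno3 and Pgam2 were thus low but measured, with 84 and 72 counts and 113 and 145 counts. Of the skeletal muscle genes named above, Acta1 had 108 and 124 counts and Ckm none, and the part of muscle RNA in these levels was not tested.

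The Eno2 share depends on the near copies of Eno1. Eno1b, an annotated protein-coding gene whose transcript matches the Eno1 coding sequence at 99.4% of bases, stood at 141 and 154 TPM with 4824 and 6208 counts. With Eno1b in the family, a reading added after its level was seen, Eno2 held 55.7% ± 0.606, Eno1 24.0% ± 0.292 and Eno1b 19.9% ± 0.397. Eno2 then exceeded Eno1 and Eno1b together by 1.27 ± 0.0338 times (1.60 ± 0.0643 in the kallisto table), where Eno2 over Eno1 alone was 2.33 ± 0.0536. A second copy, the processed pseudogene Gm4735, named after its level was seen, stood at 70.8 and 81.1 TPM with 1773 and 2386 counts. With both copies in the family Eno2 held 50.6% ± 0.793, and it was 1.06 and 1.01 times the sum of Eno1 and its copies in the 2 replicates. In the kallisto table these values were 56.7% ± 1.13, and 1.37 and 1.28 times. Reads that match several of these genes can be assigned to any of them, so the levels of Eno1, Eno1b and Gm4735 are uncertain singly. Eno1 and Eno2, by contrast, differ at 19 of their first 90 coding bases (capitals), and are 75.1% identical over the whole coding sequence.
Eno1 coding start: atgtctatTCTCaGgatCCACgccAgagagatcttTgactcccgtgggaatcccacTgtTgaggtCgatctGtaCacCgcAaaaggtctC
Eno2 coding start: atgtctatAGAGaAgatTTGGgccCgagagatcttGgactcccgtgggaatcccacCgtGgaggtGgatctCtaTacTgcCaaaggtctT

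Pyruvate kinase came from Pkm (chr9:59656368-59679375, plus strand) at 516 and 569 TPM. This gene makes the M1 and M2 enzymes by including either the upstream or the downstream of 2 mutually exclusive exons. M1 is the constitutively active form known from adult muscle and brain, and M2 the regulated form known from embryonic and proliferating cells. Both exons are 167 bases long, lie at chr9:59675029-59675195 and chr9:59675568-59675734, and differ at 64 bases, in capitals, which makes them 61.7% identical. They are printed because the choice between them is the isozyme choice.
Pkm-202 upstream exon: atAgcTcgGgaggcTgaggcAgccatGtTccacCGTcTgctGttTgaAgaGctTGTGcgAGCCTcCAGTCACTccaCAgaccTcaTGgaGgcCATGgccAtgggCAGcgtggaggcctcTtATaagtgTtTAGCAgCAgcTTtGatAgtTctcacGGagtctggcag
Pkm-201 downstream exon: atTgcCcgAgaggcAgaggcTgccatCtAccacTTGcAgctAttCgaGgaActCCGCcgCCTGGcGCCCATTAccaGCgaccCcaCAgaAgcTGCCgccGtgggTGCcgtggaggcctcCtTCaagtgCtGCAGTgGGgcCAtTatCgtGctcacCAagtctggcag

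Pkm-202, with the upstream M1 exon, took 49.5% and 51.0% of the Pkm TPM in the RSEM table, and Pkm-201, with the downstream M2 exon, took 46.5% and 46.2%. The kallisto table put Pkm-201 ahead, at 48.7% in both replicates, with Pkm-202 at 40.6% and 42.3%. Both transcripts were therefore present at similar levels, and which of them led depended on the table. Pkm-201 also carries 205 more bases at its 5′ end and 186 more at its 3′ end, so 558 of its bases are absent from Pkm-202, while Pkm-202 has 167 bases of its own. Use of the M2 exon and use of the longer ends cannot be told apart in these tables.

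Lactate dehydrogenase is a tetramer of the A subunit, which favours pyruvate reduction, and the B subunit, which favours lactate oxidation. Ldhb (chr6:142490249-142507957, minus strand) stood at 214 and 247 TPM and Ldha (chr7:46841475-46855627, plus strand) at 129 and 145 TPM. Ldhb therefore held 62.7% ± 0.485 of the family TPM. It led in both libraries by every measure, but the size of the lead varied: 73.6% ± 0.294 in the kallisto table and 54.5% ± 0.269 in counts not divided by length. The coding sequences of the pair are 71.3% identical.

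Of the plasma membrane transporters for lactate, Slc16a7 (MCT2, the high-affinity form of neurons) stood at 21.6 and 18.8 TPM. Slc16a1 (MCT1, known from endothelium and glia) stood at 14.6 and 14.3 TPM. Slc16a7 held 58.3% ± 1.97 of their sum, and 66.1% ± 1.16 in the kallisto table. The mitochondrial pyruvate carrier is a complex of Mpc1, at 63.3 and 68.1 TPM, and Mpc2, at 54.2 and 54.5 TPM. These 2 gene rows were near parity, with the near copy of Mpc1 left out. That copy, the processed pseudogene Mpc1-ps, stood at 22.45 and 25.01 TPM, and shares with it counted in were not computed. Mpc1 held 54.7% ± 1.17, but in the kallisto table it held 49.2% in replicate 1 and 52.3% in replicate 2, so that neither subunit led in both libraries there.

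Within the pyruvate dehydrogenase complex, the E1 subunits Pdha1 (X chromosome) and Pdhb stood at 97.3 and 108 TPM and at 78.3 and 84.9 TPM. Dlat, the E2 acetyltransferase, was at 58.5 and 60.0 TPM. Dld, the E3 dehydrogenase that the complex shares with 2-oxoglutarate dehydrogenase, was at 44.2 and 46.1 TPM. Pdha1 over Dlat was 1.73 ± 0.0936 in the RSEM table and 1.08 ± 0.0270 in the kallisto table, so the excess of E1 over E2 transcripts was seen mainly in the first. Pcx, the pyruvate carboxylase that refills the cycle with oxaloacetate and is known from astrocytes, was at 28.4 and 30.4 TPM.

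In the TCA cycle, citrate synthase (Cs) stood at 98.7 and 108 TPM. The NAD-dependent isocitrate dehydrogenase has a catalytic alpha subunit and regulatory beta and gamma subunits. Idh3b stood at 136 and 139 TPM, Idh3g at 84.7 and 83.5 TPM and Idh3a at 74.9 and 84.2 TPM. Idh3b was 1.74 ± 0.117 times Idh3a, whereas Idh3g exceeded Idh3a in replicate 1 and not in replicate 2. In counts, Idh3a, whose leading transcript is longer, took 37.97% of the family and Idh3g 20.6%. The NADP-dependent mitochondrial gene Idh2 was at 28.54 and 28.7 TPM, and the 3 Idh3 subunits together were 10.5 ± 0.229 times as high.

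Ogdh, the E1 component of 2-oxoglutarate dehydrogenase, stood at 102 and 103 TPM and Dlst, its E2 component, at 65.1 and 63.6 TPM. Succinyl-CoA ligase pairs the common alpha subunit, Suclg1 (59.1 and 58.1 TPM), with a beta subunit that sets the nucleotide. The ADP-specific beta gene Sucla2 was at 65.0 and 67.4 TPM and the GDP-specific Suclg2 at 5.33 and 5.65 TPM. Sucla2 held 92.3% ± 0.114 of the beta subunits, with 92.1% ± 0.0420 in the kallisto table. The 2 beta genes summed to 1.22 ± 0.0466 times the alpha gene. Fumarase (Fh1) was at 32.5 and 34.1 TPM, below every other TCA cycle gene except Idh2 and Suclg2.

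Malate dehydrogenase has a cytosolic form, Mdh1, which serves the malate-aspartate shuttle, and a mitochondrial form, Mdh2, which closes the cycle. Mdh1 (chr11:21556787-21572367, minus strand) stood at 285 and 307 TPM, and Mdh2 (chr5:135778480-135790398, plus strand) at 169 and 184 TPM. Mdh1 held 62.6% ± 0.186 of the pair, and 55.2% ± 0.0309 in the kallisto table. Mdh2 was 1.71 ± 0.00395 times Cs in the RSEM table and 1.99 ± 0.0583 times in the kallisto table.

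**Figure D2:**
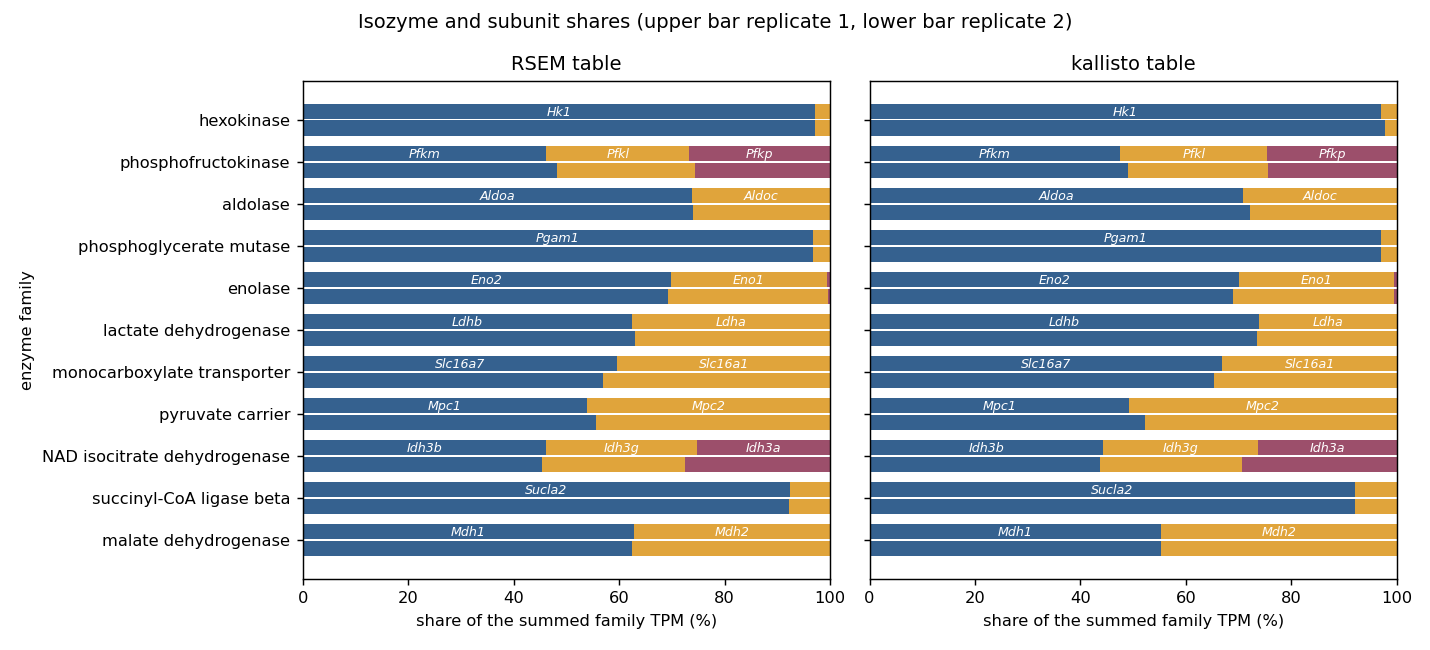
Share of each isozyme or subunit in the summed TPM of its family, in percent, for 11 families without their near copies, with the RSEM table on the left, the kallisto table on the right, and 1 bar per replicate. The unlabelled ends are Hk2, Pgam2, Eno3 and Suclg2. Replicates lie closer to each other than the tables do for Ldhb and Mdh1, and only the pyruvate carrier changes its leading member, in replicate 1 of the kallisto table.

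A further 50 genes of the same pathways were listed beside the 42, and 36 of them were at or above 1 TPM, 30 at or above 10 and 6 at or above 100. Of the 14 below 1 TPM, 5 had no count in either library. Glucose entry was represented by Slc2a3, the neuronal transporter GLUT3, at 49.1 and 52.0 TPM, and by Slc2a1, the GLUT1 of the blood-brain barrier and astrocytes, at 30.2 and 33.9 TPM. Hkdc1, a relative of the hexokinases, stood at 1.63 and 1.35 TPM. Among relatives of Pfkfb3, Pfkfb2 stood at 22.8 and 18.7 TPM, Pfkfb4 at 4.65 and 5.20 TPM and the phosphatase Tigar at 11.2 and 11.7 TPM. Bpgm, the bisphosphoglycerate mutase known from red blood cells, was at 33.3 and 31.4 TPM.

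On the pyruvate side, Bsg, the chaperone of the lactate transporters, was at 260 and 269 TPM, above both Slc16a7 and Slc16a1. The D-lactate dehydrogenase Ldhd was at 3.07 and 2.45 TPM. Pdhx, which binds Dld into the complex, was at 27.6 and 27.3 TPM. Of the kinases that switch pyruvate dehydrogenase off, Pdk2 was highest at 48.6 and 51.0 TPM, with Pdk3 at 18.2 and 19.9, Pdk1 at 15.9 and 14.8 and Pdk4 at 4.74 and 4.63 TPM. Of the phosphatases that switch it on, Pdp1 was at 27.4 and 28.4 TPM, Pdp2 at 3.47 and 3.88 TPM and the regulatory subunit Pdpr at 13.4 and 11.3 TPM.

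Beside the 13 cycle genes, succinate dehydrogenase had Sdha at 133 and 145, Sdhb at 77.7 and 84.9, Sdhc at 87.0 and 97.8 and Sdhd at 49.6 and 53.9 TPM. Ogdhl, a brain relative of Ogdh, was at 35.6 and 36.6 TPM, so Ogdh was 2.84 ± 0.0321 times as high (4.30 ± 0.140 in the kallisto table). The cytosolic Idh1 was at 22.2 and 23.8 TPM and the cytosolic aconitase Aco1 at 14.8 and 14.5 TPM.

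The shuttle and anaplerotic enzymes were all measured. The aspartate aminotransferases Got1 (132 and 146 TPM) and Got2 (97.0 and 106 TPM) stood near the level of Cs. The glycerol-phosphate shuttle had Gpd1 at 54.7 and 53.5 and Gpd2 at 57.5 and 61.2 TPM. Of the malic enzymes, Me3 was at 38.6 and 37.9, Me1 at 28.0 and 28.4 and Me2 at 10.96 and 11.2 TPM. Acly, which makes cytosolic acetyl-CoA, was at 45.6 and 48.5 TPM and the mitochondrial Pck2 at 15.9 and 17.8 TPM, while its cytosolic relative Pck1 was below 1 TPM.

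Transcript choice was described as the share of a gene's TPM taken by its leading transcript. Of the 42 genes, 40 have several annotated transcripts, and Pgam2 and Slc16a1 have a single one. For 36 of the 40 that share was 50% or more in the RSEM table, against 69.1% of 11726 detected protein-coding genes with several transcripts. In the kallisto table it was 50% or more for 23 of the 40 (57.5%), against 62.2% of 11720 genes, so the excess over the background did not hold there. The median leading share was 75.4% against 63.1% over all those genes in the RSEM table, and 60.1% against 57.8% in the kallisto table. In the RSEM table the leader took at least 75% in 20 genes, against 34.1% of the background, and at least 90% in 8, against 16.1%. The 8 were Pgam1 (99.6%), Pgk1 (99.6%), Cs (99.2%), Ldha (97.1%), Pdha1 (96.1%), Pdhb (92.7%), Tpi1 (92.1%) and Dld (91.6%). The 4 below 50% were Gpi1 (43.4%), Pfkp (40.9%), Pfkfb3 (39.4%) and Slc16a7 (37.9%).

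Between replicates of the RSEM table none of the 40 genes changed its leader. The same count over all genes was not made, so this cannot be called a trait of the enzymes. A common leader in RSEM and kallisto was found for 29 of 40, near the 76.1% of 11720 detected protein-coding genes. The 11 genes with different leaders were Hk1, Gpi1, Pfkm, Aldoa, Gapdh, Eno3, Pkm, Ldha, Slc16a7, Pcx and Fh1. Ldha-202 took 97.1% ± 0.459 of Ldha in the RSEM table and 38.7% ± 4.86 in the kallisto table, where Ldha-201, with the same 996 coding bases, took 53.1% ± 4.395. Aldoa-201 took 85.1% ± 1.19 and 44.1% ± 0.0574, and Aldoa-202, with a longer coding sequence of 1254 bases against 1092, took 0.409% and 44.7%. Both gene levels differed by less than 1.5-fold between the rescaled tables, while their leading transcripts differed.

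Some transcripts that encode only part of the enzyme took large shares in one table. Mdh1-202, with 467 coding bases against the 1002 of Mdh1-201, took 36.3% ± 1.54 of Mdh1 in the RSEM table and 10.3% ± 1.502 in the kallisto table. Mdh2-203, annotated as a target of nonsense-mediated decay, took 25.7% ± 1.03 and 3.80% ± 0.655. Ogdh-207, with 369 coding bases, took 7.63% ± 0.307 and 28.4% ± 2.72. Idh3a-204, a nonsense-mediated decay transcript, took 23.9% ± 2.44 and 40.5% ± 5.87, so that it was a large part of Idh3a in both tables.

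**Figure D3:**
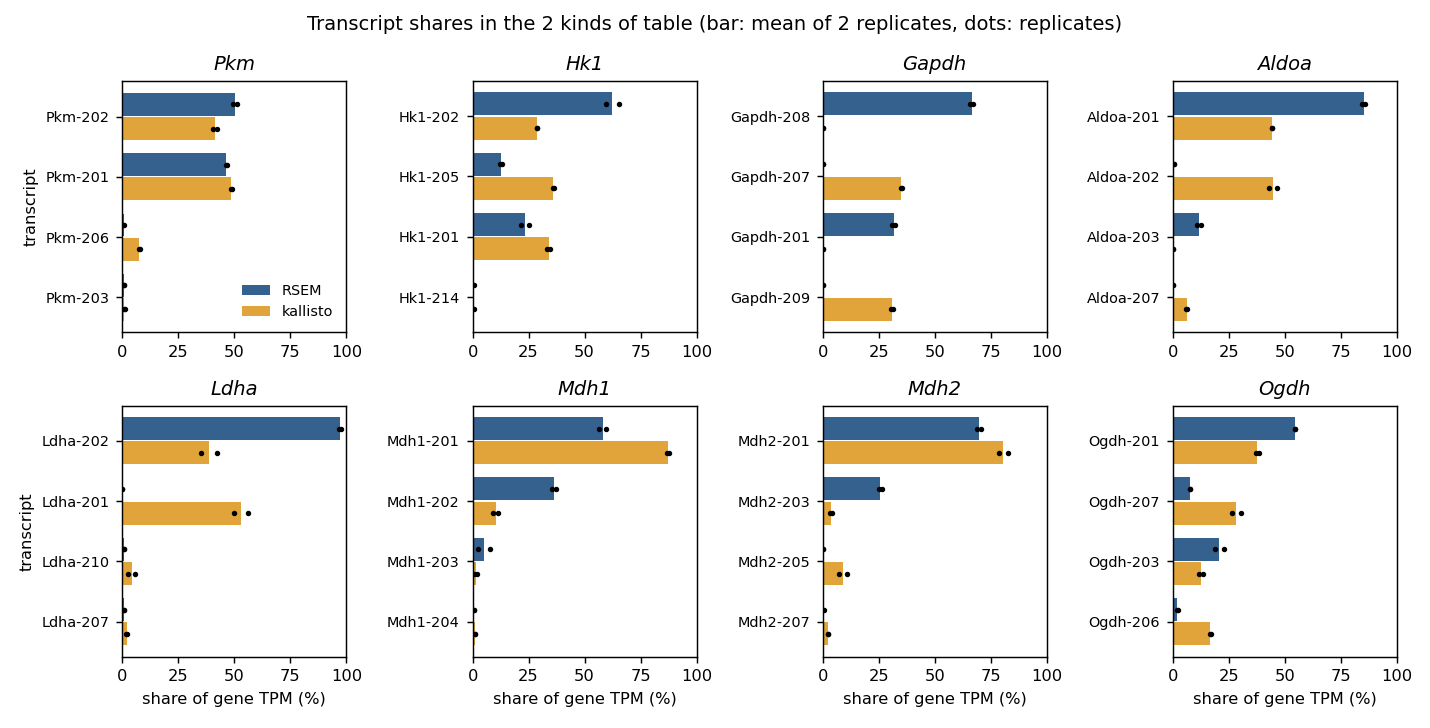
Share of gene TPM in percent for the leading transcripts of 8 genes, with blue bars for the RSEM table, yellow bars for the kallisto table, and dots for the 2 replicates. The dots of a bar lie close together, while in each of the 8 genes some bars differ between the tables by more than the dots do.

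Gapdh differed most between the tables in gene level. Its leader in the RSEM table was Gapdh-208, a processed transcript of 483 bases with no coding sequence, at 65.7% and 67.2%, followed by the full-length coding Gapdh-201 at 32.4% and 31.1%. Of the 483 bases, 444 are shared with Gapdh-201. The kallisto table listed both at 0 and gave 35.1% to Gapdh-207, 31.045% to Gapdh-209 and 28.3% to Gapdh-203. The gene levels differed as well: after both tables were rescaled to nuclear protein-coding TPM, Gapdh was 2.07 times as high in the kallisto table.

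Of the 42 genes, 3 differed by over 1.5-fold between the rescaled tables, all higher in the kallisto table: Gapdh, Fh1 (1.80 times) and Ldhb (1.53 times). Among 12964 detected protein-coding genes 5.75% differed by that much. The read counts behind these values, compared after the differences were seen, separate the 3 genes. Kallisto assigned Ldhb 1.03 times and Fh1 1.03 times the RSEM counts, so their counts were nearly equal while their TPM was not; the cause was not tested. For Gapdh it assigned 1.78 times the counts, 23451 and 31934 against 13568 and 17634. At the other end, Mdh1 was 0.728 times as high in the kallisto table.

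Near copies elsewhere in the genome also bear on these levels. A copy was counted where another gene's transcripts held at least 50% of the 31-base stretches of a member's coding sequence. By this measure 10 of the 42 genes had 53 copies, most of them processed pseudogenes, and 32 had none. Copies were searched for these 42 genes only, so whether that is many or few was not tested. Gapdh had 42, which together held 5.36% and 8.56% as many counts as Gapdh itself. The copies of Eno1 held 103% as many counts as Eno1 in both replicates. For Mpc1 the share was 10.3% and 10.4%, for Suclg2 11.7% and 8.16%, for Pgk1 3.88% and 5.64%, for Gpi1 4.25% and 4.51% and for Pgam1 3.31% and 3.25%. It was below 2% for Ldhb, Pdhb and Pkm. The deposited posterior SD of the count was at most 1.66% of the count for any of the 42 genes, in Suclg2. This SD does not cover the difference between the tables. For Gapdh it was 0.534% and 0.703% of the count, while kallisto assigned 1.78 times the counts.

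Total RNA includes incompletely spliced RNA, and for 34 of the 42 genes transcripts annotated as retaining an intron had a value in the RSEM table. Over all 42 genes these took 5.45% of the TPM in replicate 1 and 3.61% in replicate 2, while protein-coding transcripts took 81.0% and 82.5%. The share was lower in replicate 2 for 30 of the 34 genes, against 79.2% of 7396 detected protein-coding genes, so the enzymes followed the libraries as a whole. In the kallisto table it was lower for 30 of 33, against 76.6% of 7259. The member median was 5.87% in replicate 1 and 4.11% in replicate 2, and the median over all those genes was 13.0% and 9.36%.

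In the RSEM table the retained-intron share varied more between genes than between replicates. It was highest there for Pfkp (31.5% and 27.2%), Idh3g (25.0% and 19.1%), Gpi1 (27.7% and 16.2%), Idh2 (23.6% and 14.8%) and Eno2 (21.4% and 14.7%). It stayed below 2% in both replicates for Hk1, Aldoa, Aldoc, Gapdh, Pgk1, Pgam1, Eno3, Pkm, Ldha and Cs. The order differed in the kallisto table, where Dlat (25.7% and 47.9%), Pdhb (31.7% and 27.1%), Dlst (30.2% and 28.4%) and Dld (25.4% and 25.95%) were highest and Pfkp had a mean of 18.3%. Aldoa (3.58%), Aldoc (16.8%) and Pgk1 (17.0%) were above 2% there, so their low shares hold for the RSEM table only. In the RSEM table the 4 genes higher in replicate 2 were Pdhb, Idh3a, Pdha1 and Aldoc. All 4 were lower in replicate 2 in the kallisto table, where the 3 higher genes were Aldoa, Dlat and Dld. Malat1, a nuclear RNA, was at 6248 and 3857 TPM in the same libraries, and its part in these differences was not tested.

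**Figure D4:**
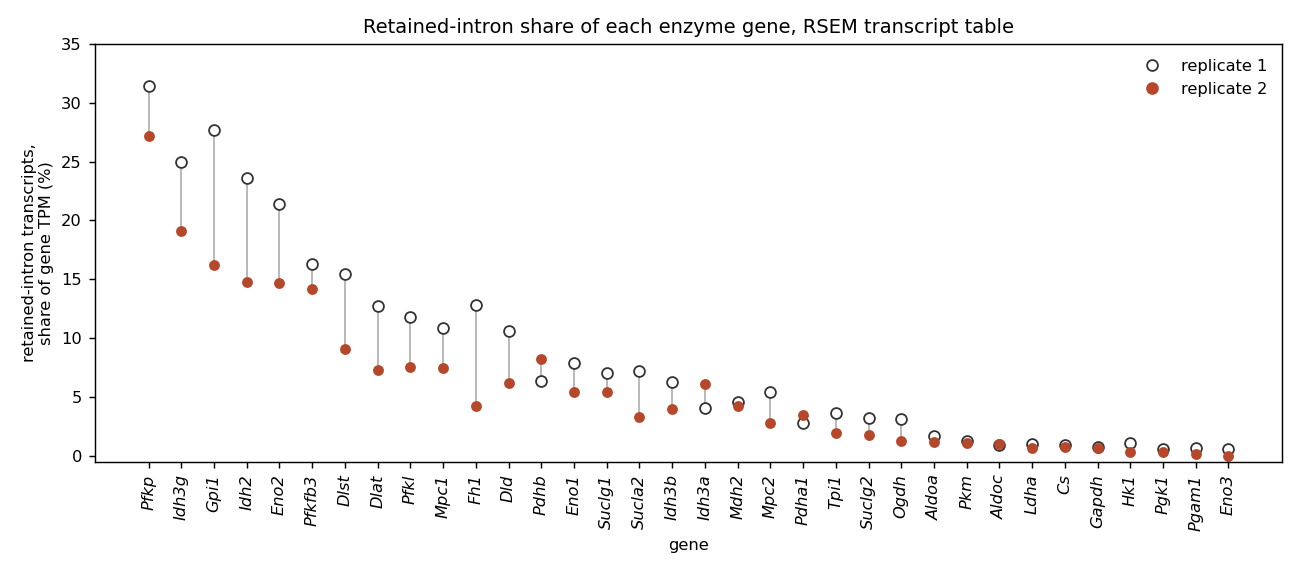
Share of each gene's TPM in transcripts annotated as retaining an intron, in percent, for the 34 genes with a value, ordered by their mean, with open circles for replicate 1 and filled circles for replicate 2. The filled circle lies below the open one for 30 of the 34 genes, and the shares run from above 30% to below 1%.

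Between the replicates all but 1 of the 42 genes, Eno3, differed little. Of the 41 with a mean of at least 100 counts, none was over 25% higher in either library than in the other after TMM scaling in edgeR, against 8.00% of 12719 genes and 5.74% of 11892 nuclear protein-coding genes. The background genes share only the count minimum and were not matched to the enzymes by count, so this cannot be called a trait of the enzymes. With only 2 libraries of a single group no test was run. The differences were small but leaned the same way: 39 of 41 were higher in replicate 2, against 62.2% of the nuclear protein-coding genes, with a median log2 ratio of 0.15 against 0.04. The highest were Ldhb (0.24), Pgk1 (0.23), Ldha (0.22), Tpi1 (0.21) and Pgam1 (0.21), and the 2 lower in replicate 2 were Slc16a7 (-0.10) and Pfkp (-0.01).

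This direction depended on the scaling. With spike-in scaling, which moved the median of protein-coding genes to -0.16, the member median was -0.06, and 5 of the 41 were higher and 36 lower in replicate 2. A change of scaling moves the log2 ratios of all genes by about a common amount. The gap between the members' median and that of protein-coding genes was therefore fixed in advance, and its being alike under either scaling is no separate evidence. By group, the TMM median log2 ratio was 0.17 over 17 glycolysis genes, 0.12 over 11 pyruvate and lactate genes and 0.13 over 13 TCA cycle genes, and with spike-in scaling it was -0.04, -0.09 and -0.08. Eno3, left out for its 78 mean counts, had a log2 ratio of -0.41. The summed TPM of the marker lists moved both ways between the replicates. The 5 red blood cell genes summed to 756 TPM in replicate 1 and 1119 TPM in replicate 2, and the 6 neuron genes to 2538 and 2776 TPM. Oligodendrocyte genes (2233 and 2356 TPM) and microglia genes (154 and 158 TPM) were also higher in replicate 2. Lower there were astrocyte genes (1403 and 1364 TPM), hippocampal field genes (278 and 269 TPM) and endothelium genes (93.6 and 80.1 TPM). The skeletal muscle genes were lower as well. The part of any of these lists in the enzymes' lean was not tested.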

How the data were processed

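Total RNA-seq of 2 hippocampus samples was used. The authors deposited, per library, a gene and a transcript table with RSEM columns (expected counts and TPM; the posterior SD of the count is treated as a score) and a transcript table with kallisto columns (estimated counts and TPM), per the file headers; genome mm10 and GENCODE M21, per the deposited notes. The sources used here do not give the aligner or program versions. Gene values from the kallisto table are sums over transcripts, and the 11 family shares were computed within each library. Replicate ratios used rounded expected counts, TMM factors in edgeR 4.0.16 (R 4.3.3), a prior count of 0.5 and a mean count of at least 100, and the computation was tested on simulated data. No p-value was computed, because 1 group of 2 libraries has no comparison. Tables were compared with a pseudocount of 0.1 TPM. Sequences came from the M21 transcripts, with coding-sequence identity by alignment (biopython 1.88) in place of a planned protein alignment. Alternatives were the kallisto table, expected counts, DESeq2 1.42.0 size factors, spike-in scaling, other thresholds and each replicate alone. All 42 members, listed pathway genes at a mean of at least 1 TPM and leading transcripts could be named; 2 listed pathway genes are counted but not reported here by name. The members and lists were chosen with earlier results of these data known.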

Additional observations from a re-analysis of the deposited data

How the results depend on the processing

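Every family kept its leading member, by mean share, in TPM, in the kallisto table and in expected counts. The leading shares in the kallisto table that moved by more than the replicate SD were Hk1 97.4%, Aldoa 71.5%, Pgam1 97.0%, Ldhb 73.6%, Slc16a7 66.1%, Mpc1 50.8%, Idh3b 44.0%, Sucla2 92.1% and Mdh1 55.2%. In expected counts they were Hk1 96.9%, Pfkm 41.6%, Aldoa 70.6%, Pgam1 98.5%, Eno2 71.8%, Ldhb 54.5%, Slc16a7 61.6%, Mpc1 50.9%, Idh3b 41.4%, Sucla2 89.6% and Mdh1 64.9%. With Eno1b in the family Eno2 held 55.7%, and with Gm4735 as well 50.6%, both alternatives chosen after seeing the data. The median TPM of the glycolysis, pyruvate and lactate, and TCA cycle genes was 355, 136 and 139 in the kallisto table, without rescaling to a common total. In the RSEM table it was 430.5, 134 and 179 after rescaling to nuclear protein-coding genes, which removes other RNA classes from the total. All 42 genes were detected at 1 TPM in either replicate alone and in the kallisto table.

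The median replicate log2 ratio changed sign only with spike-in scaling (-0.060). With a count minimum of 10 or none, 1 gene, Eno3, was over 25% apart. The ratio needs both libraries, so no replicate could be left out of it. The number of genes whose leading transcript took at least 50% was 23 in the kallisto table (background 62.2%), and 20 and 8 at thresholds of 75% and 90% (background 34.1% and 16.1%). No paired analysis was possible because the series has 1 group. With n = 2, an SD rests on a single difference, and transcripts that share most of their bases limit what either table can resolve.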
